A study of Bos taurus with 24 samples.

Results

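The 5 genes described here encode proteins that the liver secretes into blood plasma: ALB (ENSBTAG00000017121), TF (ENSBTAG00000007273), SERPINA1 (ENSBTAG00000018843), AHSG (ENSBTAG00000000522) and APOA1 (ENSBTAG00000002258). They were chosen by identifier, and all 5 are among the 24616 genes counted in every library. The symbols come with the list of identifiers; the count files carry identifiers alone, and 0 of the 24616 matched the gene table used here, so the names could not be checked independently and no genomic position is given. The study fed 12 lactating dairy cows for 12 weeks with 1 of 2 forages as the base of the ration, 6 cows each. The forages were alfalfa hay, which is a dried legume, and corn stover, which is what remains of the maize plant once the grain is taken. Liver and mammary gland were taken at slaughter from each cow, which gave 24 RNA sequencing libraries in 4 groups of 6. Each diet held 1 cow of parity 2, the others being of parity 3. The cows were at 231 to 246 days in milk on alfalfa hay and at 228 to 254 on corn stover. No genetic modification or drug is named in the labels.

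Albumin, the product of ALB, is the main protein of plasma, where it holds water in the vessels and carries fatty acids. Transferrin (TF) carries iron to cells, alpha-1-antitrypsin (SERPINA1) inhibits neutrophil elastase, fetuin-A (AHSG) keeps calcium phosphate in solution, and apolipoprotein A-I (APOA1) is the structural protein of high-density lipoprotein. Hepatocytes make these proteins on the rough endoplasmic reticulum and release them continuously, which makes their transcripts standard markers of hepatocytes. Serum albumin is also found in milk, while the major milk proteins are made in the gland.

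Library totals ran from 23595586 to 32563876 reads in liver and from 22579051 to 37954234 in mammary gland. Replicate 1 of each diet stood apart in liver. Its TMM factor, the scaling factor that a trimmed mean of ratios between libraries gives, was 0.70 in the alfalfa hay cow and 0.78 in the corn stover cow, against 0.98 to 1.17 in the other 10 livers. These 2 livers also had the fewest genes with a read, at 14786 and 15022, against 15361 to 15956 in the others. Why they stood apart was not tested. The liver results that move most with these livers are given with and without them. Lists of other plasma proteins, hepatocyte transcription factors, secretory pathway genes and markers of other cell types had been set by symbol and could not be matched to the identifiers, so none was used. The labelled liver was therefore checked only with the 5 genes themselves, and the labelled mammary gland only by their low level. In bulk tissue, fewer cells of a type and less RNA per cell cannot be told apart.

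Together the 5 genes took 13.5% ± 3.55 of all reads in liver (SD, n = 12), or 12.1% ± 1.69 without the 2 livers numbered 1 (SD, n = 10), and most of this was albumin. ALB had more reads than any other gene in all 12 livers. Its share ran from 7.30% through a median of 10.98% to 18.1% on alfalfa hay, and from 8.90% through 10.1% to 17.9% on corn stover. The highest value in each diet was replicate 1, and the ranges of the diets overlapped almost fully. ALB had 1.36 to 4.80 times the reads of the next gene in the same liver, and it made up 78.5% to 88.9% of the reads of the 5 genes. These are shares of reads, which also depend on transcript length, and they do not compare numbers of transcripts between genes.

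**Figure D1:**
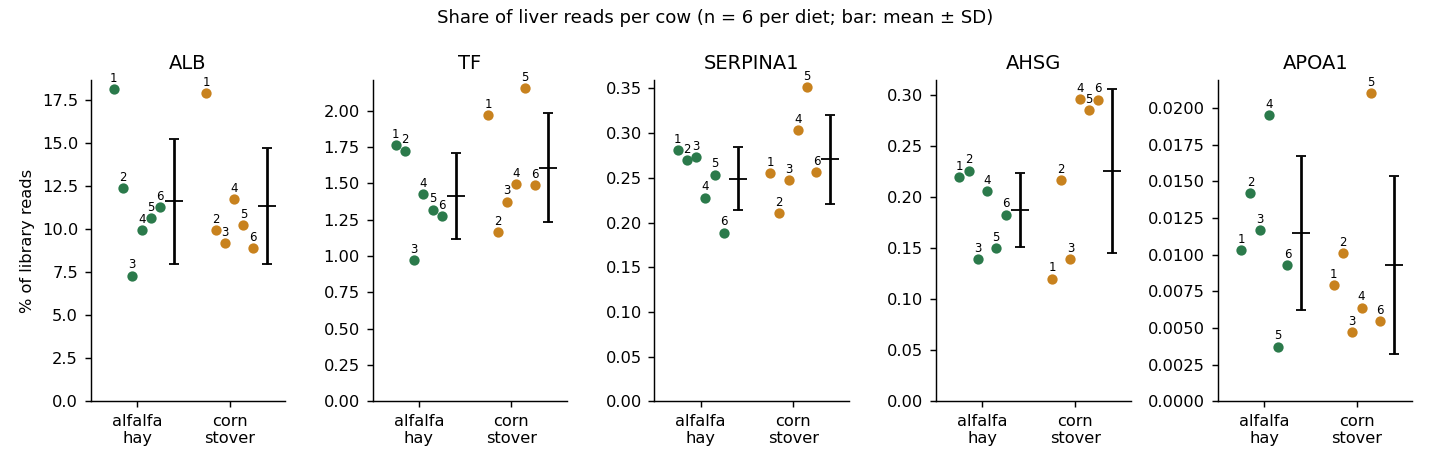
Percent of library reads (vertical axis, linear, starting at 0 and scaled separately for each gene) in liver for ALB, TF, SERPINA1, AHSG and APOA1, by diet. Each point is 1 cow with its replicate number, and the bar gives the mean ± SD of 6 cows. Replicate 1 of both diets lies near 18% for ALB while the other 10 livers lie between 7.30% and 12.4%.

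TF, the iron carrier, was the fifth to eighth gene by reads in every liver. Its share ran from 0.973% through a median of 1.37% to 1.76% on alfalfa hay and from 1.17% through 1.49% to 2.15% on corn stover. Corn stover replicates 5 and 1 were highest and alfalfa hay replicate 3 was lowest, with the diets overlapping. SERPINA1, the protease inhibitor, varied least between cows. Its share ran from 0.189% through 0.262% to 0.281% on alfalfa hay and from 0.211% through 0.256% to 0.351% on corn stover. It was the gene ranked 29 to 55 by reads.

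AHSG, the calcium phosphate carrier, took 0.139% to 0.226% of liver reads on alfalfa hay, with a median of 0.194%. On corn stover it took 0.120% to 0.296%, with a median of 0.251%. On this scale corn stover replicates 4, 5 and 6 lay above every alfalfa hay liver and corn stover replicate 1 lay below them all. On CPM normalised by the TMM factor, no corn stover liver lay above all of alfalfa hay, where replicate 1 was at 3143. The other alfalfa hay livers were at 1356 to 2299. Corn stover replicates 4, 5 and 6, at 2871, 2598 and 2536, lay above these, and replicate 3, at 1255, lay below them. The coefficient of variation was 33.9% in alfalfa hay cows against 29.6% in corn stover cows. The gene listed as APOA1, the high-density lipoprotein gene, held far fewer reads than the other genes. This level is low for APOA1, which is known as an abundant liver transcript, and the pairing of identifier and name could not be checked, so each APOA1 value here is that of the identifier. Its level was 37.4 to 195 CPM (the count scaled to the library total) on alfalfa hay and 47.4 to 210 CPM on corn stover, which placed it between rank 543 and rank 3070 by reads. Each liver still held at least 882 APOA1 reads, so counting error was small beside the difference of 5.63 times between the lowest cow, alfalfa hay replicate 5, and the highest, corn stover replicate 5.

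The spread between cows was examined on normalised CPM, for which each count was divided by its library total and its TMM factor. The coefficient of variation over 12 livers was 49.8% for ALB, 51.3% for APOA1, 34.3% for TF, 30.6% for AHSG and 24.4% for SERPINA1. Among the 2278 genes whose median in liver reached 50 CPM, the middle value was 25.9%. ALB and APOA1 thus lay at the 91st and 92nd percentile of these genes and SERPINA1 at the 45th. Among the 110 genes whose median reached 1000 CPM, which leaves out APOA1, the middle value was 30.4%. There ALB lay at the 77th percentile, TF at the 57th, AHSG at the 50th and SERPINA1 at the 36th. For ALB much of the spread came from 2 cows. Its normalised level was 259215 CPM in alfalfa hay replicate 1 and 230085 CPM in the liver numbered 1 on corn stover, while the other 10 livers lay between 71109 and 125945 CPM. Without these 2 livers its coefficient of variation was 17.3%, while that of APOA1 was 57.1%, that of AHSG 28.3%, that of TF 22.2% and that of SERPINA1 18.4%. TF was also highest in these 2 livers, at 25189 and 25310 CPM against 9482 to 19605 CPM in the others. SERPINA1 was at 4016 and 3279 CPM there against 1729 to 3198 CPM. AHSG did not follow, being highest of all in alfalfa hay replicate 1, at 3143 CPM, and among the lower livers in corn stover replicate 1, at 1546 CPM. The low TMM factor of these 2 libraries raises every normalised value in them. On plain shares of reads, their TF (1.76% and 1.97%) and SERPINA1 (0.281% and 0.255%) lay within the range of the other livers, whereas their ALB did not. The coefficient of variation of plain shares over 12 livers was 29.1% for ALB, 53.3% for APOA1, 22.4% for TF, 30.3% for AHSG and 16.3% for SERPINA1.

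Of the 10 pairs that the 5 genes form, 3 were correlated by Pearson r across the 12 livers on log2 normalised CPM (permutation test, 100000 resamples, two-sided, adjusted over the 10 pairs). ALB and TF had r = 0.86 (permutation p = 0.00068, adjusted 0.0068) and rho = 0.63 (permutation p = 0.0321, adjusted 0.161). TF and SERPINA1 had r = 0.79 (permutation p = 0.00177, adjusted 0.00885) and rho = 0.77 (permutation p = 0.00464, adjusted 0.0464). ALB and SERPINA1 had r = 0.68 (permutation p = 0.0144, adjusted 0.048) and rho = 0.46 (permutation p = 0.135, adjusted 0.274). By rho only TF and SERPINA1 passed. Within the diets ALB and TF had r = 0.96 on alfalfa hay and 0.79 on corn stover. These relations rested largely on the 2 livers numbered 1, which were the farthest from the median in all 3 pairs. Without them r was 0.56 for ALB and TF, 0.58 for TF and SERPINA1 and 0.13 for ALB and SERPINA1, and 0 of the 10 pairs passed. With plain library totals in place of TMM scaling, 0 pairs passed as well. AHSG and APOA1 passed with no partner, at r = 0.29 to 0.46 for the 7 pairs that hold either gene. ALB and AHSG had r = 0.91 on alfalfa hay and -0.27 on corn stover, and this difference was not tested.

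Among the other genes of at least 1000 CPM in liver, the 2 genes whose level followed ALB most closely over the 12 livers were ENSBTAG00000012794 (r = 0.95) and ENSBTAG00000004003 (r = 0.95). Without the 2 livers numbered 1 their r was 0.76 and 0.68. The gene most like TF was ENSBTAG00000005122 (r = 0.96, and 0.96 without the 2 farthest livers), that most like SERPINA1 was ENSBTAG00000004362 (r = 0.92, and 0.89) and that most like AHSG was ENSBTAG00000015676 (r = 0.79, and 0.75). For APOA1 the closest was ENSBTAG00000005586, at r = 0.61 and 0.51. These coefficients are the largest of 109 or 110 and describe these libraries only. No symbol is paired with these identifiers here.

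Milk yield, at 23.3 to 29.0 kg per day on alfalfa hay and 17.1 to 23.3 kg per day on corn stover, hardly overlapped between the diets, so the liver levels were set against it within each diet only. None of the 10 relations passed (exact permutation test, two-sided, n = 6, smallest p = 0.122, smallest adjusted p = 0.739). The coefficients ran from r = -0.62 for AHSG on corn stover to r = 0.76 for ALB on corn stover, and rho from -0.77 to 0.54. The r of 0.76 became -0.95 without the 2 cows farthest from the median yield.

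The liver comparison asked whether the diet altered transcripts of these plasma proteins, and none of the 5 genes passed. The edgeR quasi-likelihood test, with Benjamini-Hochberg adjustment across the 12929 genes that entered it, called 0% of genes in either direction, and 354 genes had an unadjusted p below 0.05. ALB was at 125898 ± 67644 normalised CPM on alfalfa hay and 115677 ± 57531 on corn stover (SD, n = 6), which is -0.12 ± 0.37 on the log2 scale (SE; adjusted p = 0.99999 by edgeR). The sign of this difference depended on 1 cow, for it was 0.23 without alfalfa hay replicate 1. Without both livers numbered 1 it was -0.10. TF differed by 0.09 ± 0.29, SERPINA1 by 0.02 ± 0.23 and AHSG by 0.13 ± 0.26 on the log2 scale. AHSG was at 0.39 without both livers numbered 1 (edgeR adjusted p = 0.9996). APOA1 had the largest fitted difference, at 118.6 ± 52.9 normalised CPM on alfalfa hay and 90.7 ± 55.4 on corn stover, which is -0.39 ± 0.40 on the log2 scale (SE; adjusted p = 0.99999 by edgeR). Without corn stover replicate 5, its highest liver, this was -0.75. For all 5 genes the values of the diets overlapped, while they were fully separated in 0.0619% of all genes tested. Of the 5 fitted differences 3 were positive and 2 negative, and the median log2 difference of all genes tested was 0.0036.

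Between the tissues all 5 genes differed by large factors. Over the 24 libraries each was lower in mammary gland, with a log2 difference, mammary gland minus liver, of -10.59 ± 0.54 for AHSG (SE; adjusted p = 1.68e-15 by edgeR). It was -10.55 ± 0.61 for TF (adjusted p = 2.71e-14 by edgeR) and -10.45 ± 0.71 for ALB (6.36e-13). SERPINA1 differed by -6.38 ± 0.27 (adjusted p = 5.24e-17 by edgeR) and APOA1 by -6.30 ± 0.53 (5.42e-11). Of the 13760 genes tested 68.2% were called in either direction and 34.7% as higher in liver, and these 5 genes were picked as liver products. They also passed the filter on low counts within mammary gland alone. APOA1 and AHSG did so mainly through corn stover libraries. Their median counts were 5 and 4.5 reads on alfalfa hay and 14.5 and 16.5 on corn stover. With the cow as a block, which fits the 2 tissues of each animal as a pair, the differences were -11.08 to -6.46 and all 5 genes passed. Without TMM scaling the median difference of all genes moved from -0.016 to -0.998 and the genes called went from 4609 higher and 4774 lower in mammary gland to 1850 higher and 9307 lower. The 5 genes were lower in mammary gland under either scaling. The genes thus formed 2 sets. In ALB, TF and AHSG the liver median was 4541, 4996 and 4940 times the mammary median in CPM, and in APOA1 and SERPINA1 it was 253 and 173 times.

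All 5 genes had reads in every mammary library. ALB counted 117, 399, 332, 1539, 321 and 208 reads in alfalfa hay replicates 1 to 6. In corn stover replicates 1 to 6 it counted 484, 2659, 6393, 3885, 779 and 791 reads. This was 4.73 CPM (exact 95% binomial interval 3.92 to 5.67, counting error only) in the lowest library and 274 CPM (268 to 281) in the highest. The libraries with most ALB were corn stover replicates 3, 4 and 2, followed by alfalfa hay replicate 4. ALB was the gene ranked 111 by reads in corn stover replicate 3 and the gene ranked 7140 in alfalfa hay replicate 1.

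TF counted 16 to 206 reads on alfalfa hay, with a median of 1.51 CPM, and 55 to 688 reads on corn stover, with a median of 8.19 CPM. Its highest 4 libraries were the same as for ALB, in the same order. AHSG was near the limit of counting, at 2 to 41 reads on alfalfa hay and 11 to 81 on corn stover. Its highest and lowest libraries were at 3.48 CPM (exact 95% binomial interval 2.76 to 4.32) and 0.0886 CPM (0.0107 to 0.320). APOA1 counted 2 to 14 reads on alfalfa hay. On corn stover 5 libraries held 5 to 27 APOA1 reads, and replicate 2 held 176, or 6.83 CPM (5.86 to 7.91). That library was not the one with most ALB.

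SERPINA1 showed another order of libraries. It counted 435, 219, 588, 499, 728 and 518 reads in alfalfa hay replicates 1 to 6 and 260, 325, 534, 183, 212 and 496 reads in corn stover replicates 1 to 6. Its highest library was alfalfa hay replicate 5, at 29.5 CPM, and its lowest was corn stover replicate 4, at 6.35 CPM, which was the second highest for ALB. In alfalfa hay replicates 1, 3, 5 and 6 there were more SERPINA1 than ALB reads, an order found in no liver. Of the reads of the 5 genes SERPINA1 made up 3.97% to 75.4% in mammary gland and 1.26% to 3.14% in liver.

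**Figure D2:**
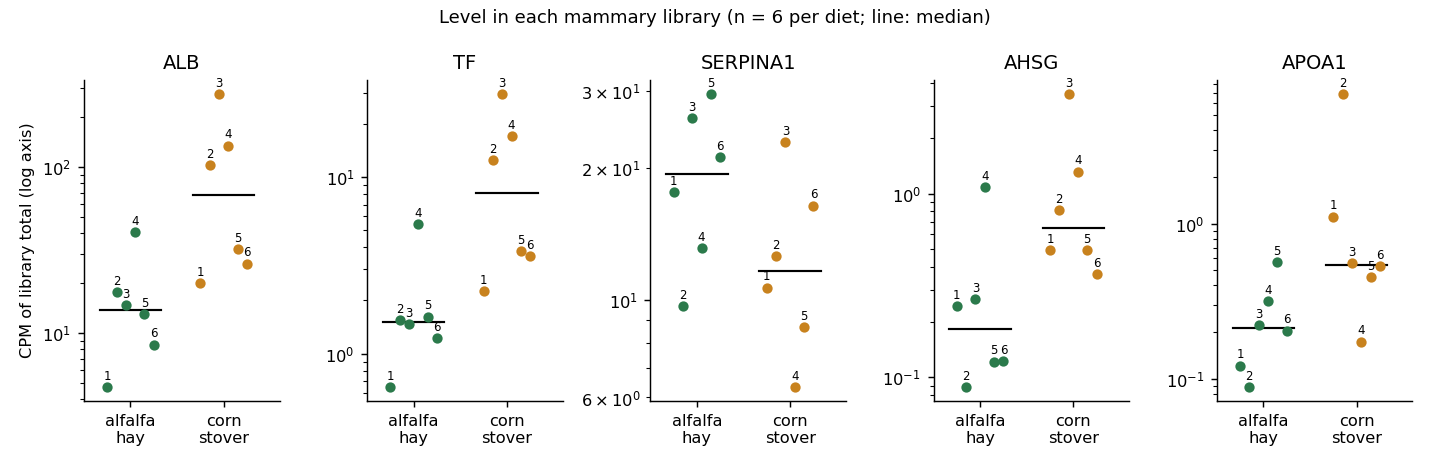
Level in each of the 12 mammary libraries, in CPM of the library total on log axes scaled separately for each gene, by diet. Points are libraries with their replicate number, and the line is the median of 6. ALB, TF and AHSG are highest in corn stover replicate 3, APOA1 in corn stover replicate 2 and SERPINA1 in alfalfa hay replicate 5.

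The ratio of reads between 2 genes within a library is free of scaling, and it was compared between the tissues of the same cow (exact sign-flip permutation test over 12 cows, two-sided, 4 ratios, chosen after the values had been seen). For ALB to TF the ratio was 4.76 to 10.3 in liver (median 7.69) and 6.93 to 11.4 in mammary gland (median 8.12). The mean log2 difference between the tissues was 0.15 ± 0.39 (SD, n = 12; exact permutation p = 0.222, adjusted 0.296), with the ratio higher in mammary gland in 6 of 12 cows. Without both cows numbered 1 it was 0.23. The ALB to AHSG ratio had a median of 53.6 in liver and 70.6 in mammary gland, a mean log2 difference of 0.30 ± 1.25 (SD, n = 12; exact permutation p = 0.421, adjusted 0.421), with the ratio higher in mammary gland in 9 of 12 cows. Without both cows numbered 1 this difference was 0.75. These values span a range of 58.0 times in the ALB level of the mammary libraries. A test that was not passed does not show that the ratios are equal.

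SERPINA1 and APOA1 did not keep their liver ratio. The ALB to SERPINA1 ratio was 26.8 to 70.2 in liver (median 42.9) and 0.269 to 21.2 in mammary gland (median 1.84). It was lower in mammary gland in 12 of 12 cows, with a mean log2 difference of -4.45 ± 2.19 (SD, n = 12; exact permutation p = 0.000488, the smallest that 4096 assignments allow, adjusted 0.000976). The ALB to APOA1 ratio was 487 to 2852 in liver and 15.1 to 777 in mammary gland, and it was also lower in 12 of 12 cows (mean log2 difference -4.06 ± 2.07, SD, n = 12; exact permutation p = 0.000488, adjusted 0.000976). The ranges of the tissues did not overlap for SERPINA1, and for APOA1 2 mammary libraries lay within the liver range. Mammary alfalfa hay replicates 1, 2, 3, 5 and 6 and corn stover replicate 1 held 117 to 484 ALB reads. This is fewer than the lowest liver ratio to APOA1, 487, so any APOA1 read there fixes the direction. The direction in these cows therefore adds little to the APOA1 test, and mammary APOA1 counts went down to 2 reads.

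**Figure D3:**
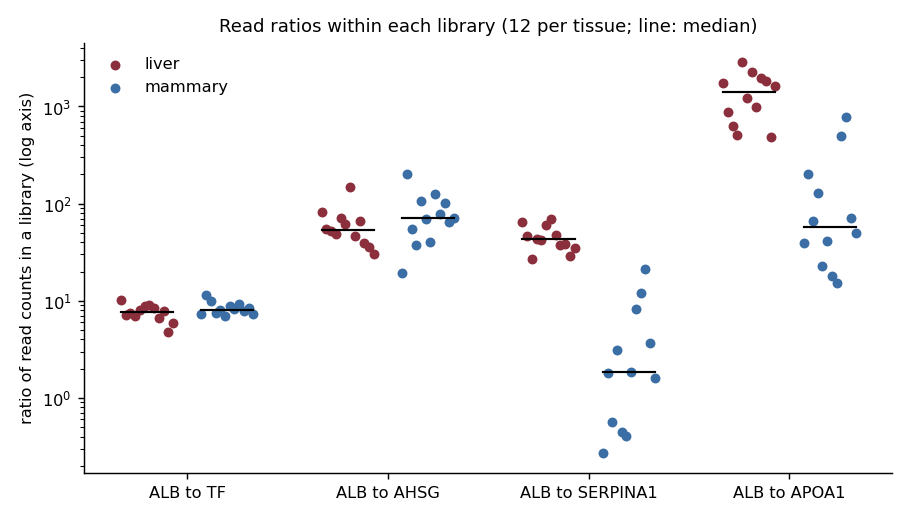
Ratio of ALB reads to the reads of TF, AHSG, SERPINA1 and APOA1 in each library (vertical log axis), 12 libraries per tissue, with the line at the median. Liver and mammary libraries overlap for ALB to TF and ALB to AHSG, and mammary libraries lie lower for ALB to SERPINA1 (median 1.84 against 42.9) and ALB to APOA1.

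The mammary levels were then set beside 57 other liver-type genes, which have a median of at least 1000 CPM in liver and at least 1000 times their mammary median. ALB, TF and AHSG meet these limits themselves. SERPINA1 fails the ratio and APOA1 fails both limits, so the set was chosen in a way that favours the first 3 genes. Summed over the 57 genes, mammary libraries held 85.2 to 407 ppm of the liver level on alfalfa hay and 214 to 1645 ppm on corn stover. ALB stood at 0.486 to 1.59 times the ppm of these genes in the same library, TF at 0.477 to 1.23 times and AHSG at 0.293 to 1.35 times. SERPINA1 stood at 2.52 to 80.9 times and APOA1 at 1.81 to 59.6 times.

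Across the 12 mammary libraries, ALB, TF and AHSG followed the 57 genes on the log2 scale (permutation test, 100000 resamples, two-sided, adjusted over 5 relations that were chosen after the values had been seen). For TF r was 0.98 (permutation p = 1e-05, the smallest this number of resamples can give, adjusted 2.5e-05; rho = 0.93). ALB had r = 0.97 (permutation p = 1e-05, adjusted 2.5e-05; rho = 0.92) and AHSG r = 0.86 (permutation p = 0.00037, adjusted 0.000617; rho = 0.85). Without the 2 libraries farthest from the median, r was 0.96, 0.94 and 0.79. Within alfalfa hay r was 0.97, 0.93 and 0.71, and within corn stover 0.96, 0.94 and 0.79. APOA1 had r = 0.53 (permutation p = 0.0722, adjusted 0.0902; rho = 0.56) and SERPINA1 r = -0.28 (permutation p = 0.377, adjusted 0.377; rho = -0.23). Without the 2 farthest libraries these were 0.26 and -0.59. The 57 genes were picked from these same libraries by limits that ALB, TF and AHSG meet and SERPINA1 and APOA1 fail. The contrast between the genes is therefore not independent of that choice. The mammary level of a gene showed no relation that passed with its level in the liver of the same cow, where r ran from -0.49 for SERPINA1 to -0.04 for AHSG and rho from -0.49 to 0.0070 (permutation test, 5 relations, smallest p = 0.105, smallest adjusted p = 0.302).

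**Figure D4:**
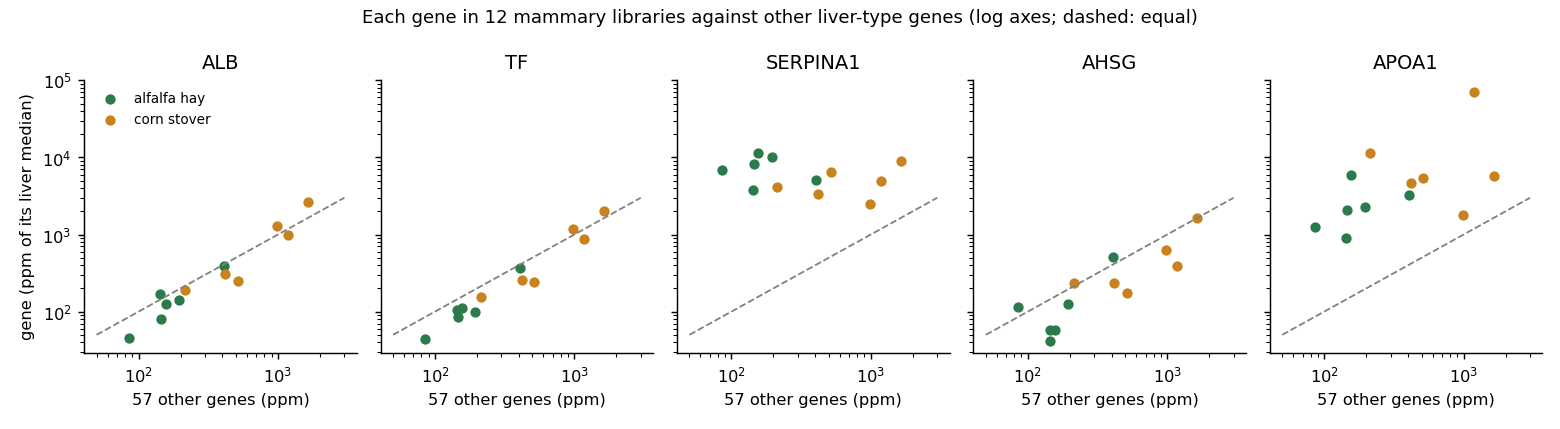
Level of each gene in 12 mammary libraries, in ppm of its liver median (vertical), against the summed level of 57 other liver-type genes in the same library (horizontal), both on log axes. The dashed line marks equal values. ALB, TF and AHSG lie near it and mostly below, between 0.293 and 1.59 times the other genes, with medians of 0.815, 0.718 and 0.594 times. SERPINA1 and APOA1, which fail the limits that chose the 57 genes, lie above it.

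The mammary comparison asked whether the diet altered these levels, and none of the 5 genes passed over the 12027 genes tested. The edgeR test called 0% of genes, with 784 genes at an unadjusted p below 0.05, and DESeq2 called 42. ALB was at 18.9 ± 19.0 normalised CPM on alfalfa hay and 102.0 ± 99.3 on corn stover (SD, n = 6), which is 2.44 ± 0.70 on the log2 scale (SE; adjusted p = 0.424 by edgeR and 0.156 by DESeq2). Corn stover replicates 2, 3 and 4 lay above every alfalfa hay library, while the other 3 overlapped with alfalfa hay. Below every corn stover library lay 3 alfalfa hay libraries on normalised CPM and 5 on CPM without TMM scaling. TF differed by 2.36 ± 0.70 (SE; adjusted p = 0.457 by edgeR) and AHSG by 1.57 ± 0.74 (adjusted p = 0.762 by edgeR) on the log2 scale. The summed ppm of the 57 other liver-type genes moved with them, having a median of 151 on alfalfa hay and 750 on corn stover. Corn stover replicates 2, 3 and 4 had the most liver-type reads, and they were also the 3 libraries with most ALB and TF, so a smaller difference without them follows from that choice and supports nothing. Without them the log2 difference was 0.34 for ALB, 0.35 for TF and 0.04 for AHSG (edgeR adjusted p = 0.999 each). Without alfalfa hay replicate 4 it was 3.17, 3.24 and 2.83. With days in milk as a covariate it was 1.41 for ALB, 1.42 for TF, 0.71 for AHSG and 1.64 for APOA1 (adjusted p = 0.571 to 0.805 by edgeR). Days in milk were not balanced, at 231 to 246 on alfalfa hay and 228 to 254 on corn stover. Corn stover replicates 1, 2, 3 and 4 were later in milk than every alfalfa hay cow, and replicates 5 and 6 were not. The part of liver-type reads in the diet differences was not tested.

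APOA1 differed by 2.54 ± 0.83 on the log2 scale in mammary gland (SE; adjusted p = 0.541 by edgeR), and by 0.86 without corn stover replicate 2. The filter on low counts kept APOA1 and AHSG mainly through corn stover libraries, where they were higher, so their diet differences carry that selection. SERPINA1 had the opposite sign. It was at 20.2 ± 8.67 normalised CPM on alfalfa hay and 12.7 ± 5.85 on corn stover, which is -0.67 ± 0.32 on the log2 scale (SE; adjusted p = 0.762 by edgeR). On this scale corn stover replicates 4 and 1 lay below every alfalfa hay library, alfalfa hay replicates 5 and 3 lay above every corn stover library, and the others overlapped. Its sign was negative in all 24 alternatives, and in none did it pass. In none of the 5 genes were the diets fully separated, as they were in 0.349% of all genes tested.

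**Figure D5:**
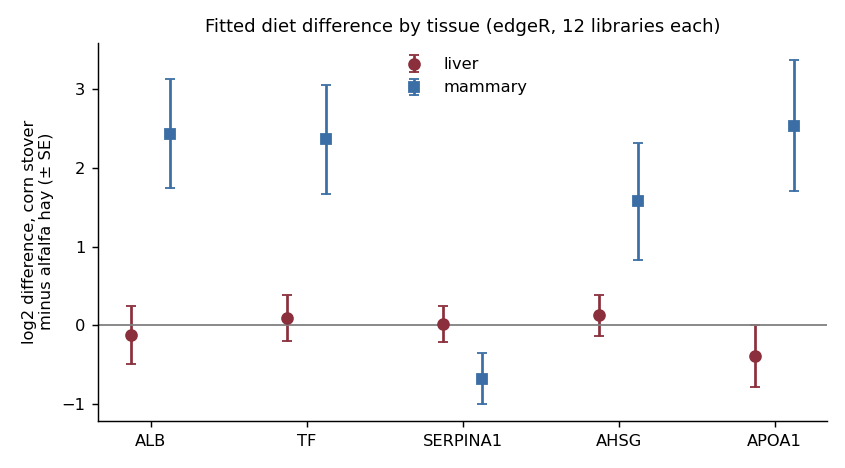
Fitted log2 difference, corn stover minus alfalfa hay, with its standard error, for each gene in liver and in mammary gland (edgeR, 12 libraries per tissue). Liver values lie between -0.39 and 0.13, mammary values lie between 1.57 and 2.54 for 4 genes and at -0.67 for SERPINA1, and none passes over all genes tested.

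Whether the diet effect was unequal in the 2 tissues was tested directly over all 24 libraries, where edgeR called 0% of 13760 genes, with 700 at an unadjusted p below 0.05. DESeq2 called 74 genes. The log2 interaction, mammary gland minus liver, was 2.90 ± 0.94 for APOA1 (SE; edgeR adjusted p = 0.601), 2.54 ± 0.96 for ALB (0.803), 2.26 ± 0.84 for TF (0.788), 1.43 ± 0.78 for AHSG (0.9999) and -0.71 ± 0.44 for SERPINA1 (0.9999). No gene of the 5 passed in edgeR, limma voom or DESeq2, in which APOA1 was given no adjusted p and ALB was nearest at 0.0555. A difference in diet effect between the tissues was therefore not shown for these genes. Their fitted diet differences in mammary gland were larger in size than in liver, positive for ALB, TF, AHSG and APOA1 and negative for SERPINA1.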

How the data were processed

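RNA was sequenced from liver and mammary gland of 12 cows, 6 per diet. Per the labels' protocols, total RNA came from ground frozen tissue and libraries followed Illumina protocols. Each deposited file is a table of unnormalised counts of reads by gene for a single library. Per the submitters' processing notes, the authors used TopHat2 2.0.9, SAMtools 1.1, HTSeq 0.6.1 and the build UMD3.1, with no role stated. The labels and headers give no annotation release, strand setting or read filter. Reads that overlap another gene may be lost or split. Each liver file ends in 5 to 7 blank rows, which were left out.

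The main test was the edgeR quasi-likelihood F test (edgeR 4.0.16, R 4.3.3) on these counts after filterByExpr (minimum count 10, total 15) and TMM scaling, within each tissue for diet and over 24 libraries with 4 group means for tissue and interaction, with a threshold of 0.05 on the adjusted p. DESeq2 1.42.0, limma 3.58.1 voom and other settings were alternatives, and the tools were tested on simulated data. The SE is the size of the log2 change divided by the square root of F. The 2 libraries of a cow were identified by equal recorded values in 12 of 12 cows, and their deviations correlated at -0.14 to 0.23. The members and lists were chosen with earlier results of these data known. The rule for other named genes took, among genes of at least 1000 CPM in liver, the 2 most correlated with ALB and the 1 most correlated with each other member. No molecular identifiers are named, so intervals cover counting error only.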

Additional observations from a re-analysis of the deposited data

Results flagged for a closer look

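A sample that lay far from the other 5 of its group was found in 8 of 24 groups checked, where chance gives about 1.2. The groups checked are not independent, because several of the 8 are the same library in quantities that vary together. An excess over chance was therefore not tested. In liver, ALB was at 259215 normalised CPM in alfalfa hay replicate 1, against 71109 to 125945 in the rest of that group. Corn stover replicate 1 had 230085 normalised CPM of ALB, against 76387 to 114038, and its summed share of the 5 genes was 20.2% of reads, against 10.9% to 13.9%. These are the 2 livers with the low TMM factors.

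In mammary gland, alfalfa hay replicate 4 stood apart in 4 quantities. ALB was at 56.6 normalised CPM, against 4.22 to 15.5 in the rest of its group. TF was at 7.57, against 0.577 to 1.89, and AHSG at 1.51, against 0.0775 to 0.244. The 57 other liver-type genes were at 407 ppm of their liver level in that library, against 85.2 to 195. APOA1 was at 7.30 normalised CPM in corn stover replicate 2, against 0.211 to 0.802.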

How the results depend on the processing

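The lower level of all 5 genes in mammary gland kept its direction and its side of the threshold in all 22 alternatives, and AHSG in liver and the 5 genes in mammary gland kept their direction in every alternative that gave a value. The filter at 1 CPM removed APOA1 and AHSG from the mammary fit. Liver diet calls numbered 3 with DESeq2 and 3 with all 24 libraries in one fit, against 0. The headers of 5 alfalfa hay livers name the tissue and those of the other 7 livers do not. This nearly coincides with diet. As a batch term it leaves alfalfa hay replicate 6 alone to be compared with the corn stover livers. The liver log2 difference then became 0.16 for ALB, 0.0925 for APOA1, 0.45 for TF, 0.62 for SERPINA1 and 0.36 for AHSG. With parity 3 cows alone it became -0.0232 for TF and -0.0276 for SERPINA1. This leaves out alfalfa hay replicate 2 and the outlying corn stover replicate 1, and keeps the outlying alfalfa hay replicate 1. Without corn stover replicate 1 alone the difference was -0.0710 for TF and -0.0378 for SERPINA1, so a part of parity cannot be told apart here. Leaving out each replicate gave -0.42 to 0.23 for ALB, -0.0710 to 0.31 for TF and -0.0781 to 0.19 for SERPINA1. Replicate numbers name different cows in the 2 diets, and same-numbered samples correlated at 0.03 to 0.55 in liver and -0.19 to 0.24 in mammary gland. With the replicate block, 12 mammary genes passed against 0, and ALB passed at 2.15 (edgeR adjusted p = 0.0385) while TF did not (2.19, adjusted p = 0.0706). Blocking left the liver diet count at 0, and the cow block left the interaction count at 0. DESeq2 called 42 mammary genes and 74 interaction genes, and leaving out each cow gave 0 to 2 interaction genes, with 2 only without alfalfa hay cow 4. Correlated pairs in liver numbered 0 with library totals, 0 without both cows numbered 1, and 1 to 3 when each liver was left out, with 1 only without alfalfa hay replicate 1. The cause of these changes was not tested. Depth limits AHSG and APOA1 in mammary gland, where the lowest libraries held 2 reads.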
